A study of Mus musculus with 16 samples.

Results

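The lungs of wildtype mice treated with bleomycin were compared with the lungs of wildtype mice treated with saline, over all 16380 listed genes. The comparison took 8 of the 16 libraries of the series, chosen by their labels alone: 4 of wildtype mice given saline (WT-Sal, replicates 1 to 4) and 4 of wildtype mice given bleomycin (WT-Bleo, replicates 5 to 8). Both groups were littermates of IL-31RA knockout mice, had a C57BL/6 background and carried no targeted allele. Bleomycin at 6 U/kg in 50 µl of saline, or saline alone, was put into the skin once a day, 5 days a week over 4 weeks, and lungs were taken on day 28. The study used mice of both sexes aged 10 to 18 weeks. Total lung RNA was sequenced on an Illumina HiSeq-1000. The other 8 libraries, from knockout mice that lack exons 4 to 6 of Il31ra (KO-Sal and KO-Bleo), serve here only to set the same contrast beside the wildtype one. The sources used here do not tie a library to a mouse, a sex or a sequencing run, so p-values measure the spread between libraries, which may be partly technical.

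Bleomycin is an antibiotic that binds iron and oxygen and cuts DNA. Lung and skin hold little of the hydrolase that inactivates it, which is why the lung is the organ most often injured by the drug in patients. Cells with broken DNA stabilise p53, a transcription factor that halts the cell cycle, starts repair or kills the cell. In the injured alveolus, alveolar type 2 cells renew the lining through a Krt8-high transitional state, monocytes enter from the blood and become macrophages, and fibroblasts lay down collagen. Bleomycin given through the skin reaches the lung in the blood, so that the endothelium meets it early. The RNA came from whole lungs, so fewer cells of a type and less RNA per cell cannot be told apart.

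The deposited values were read as RPKM, that is, reads divided by the length of the gene and the size of the library. WT-Bleo replicate 6 was shallow, with 603497 reads in listed genes against 7783352 to 32120322 in the other 7 libraries, and it listed 2089 genes at 0 against 2 to 200. In that library, 1 read in a gene of 1 kb stood for 1.65 RPKM, against 0.0311 to 0.128 RPKM elsewhere, so its low values are coarse. Across genes, which are not independent replicates, its correlation with the libraries of its own group was 0.970, against 0.993 or more between the other libraries of a group. Xist, the RNA that silences 1 X chromosome in female cells, lay between 44.4 and 60.3 RPKM in all 8 libraries. Every library thus held RNA of female cells, although the labels give no sex. In the limma comparison below, Xist was called higher with bleomycin (log2 fold change 0.25, adjusted p = 0.0129). The markers of lung epithelium were abundant in every library, with surfactant protein gene Sftpc at 9347 to 19466 RPKM and Ager, a gene of alveolar type 1 cells, at 528 to 611 RPKM. Il31ra, the receptor gene deleted in the knockout mice, was hardly transcribed and lay between 0 and 0.253 RPKM.

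With bleomycin, the RNA level of 5066 genes differed (30.9% of the genes tested), as called by limma on log2(RPKM + 1) at a Benjamini-Hochberg adjusted p under 0.05. Of these, 3045 were higher with bleomycin (18.6% of all genes) and 2021 were lower (12.3%). The groups did not overlap for 5592 genes (34.1%), and 4670 of the called genes were among them. Most changes were small: 561 called genes differed by at least 1 on the log2 scale, 404 of them higher and 157 lower. The median log2 fold change of all genes was 0.01, so a gene list is read below against about no change in the median and against 18.6% called higher and 12.3% called lower. Of the calls, 60.1% were higher as the values were deposited and 49.8% after median-of-ratios scaling. Without WT-Bleo replicate 6 the calls numbered 6442. Every log2 fold change below is on the log2(RPKM + 1) scale, which makes the change of a low gene smaller, and is positive where bleomycin was higher.

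**Figure D1:**
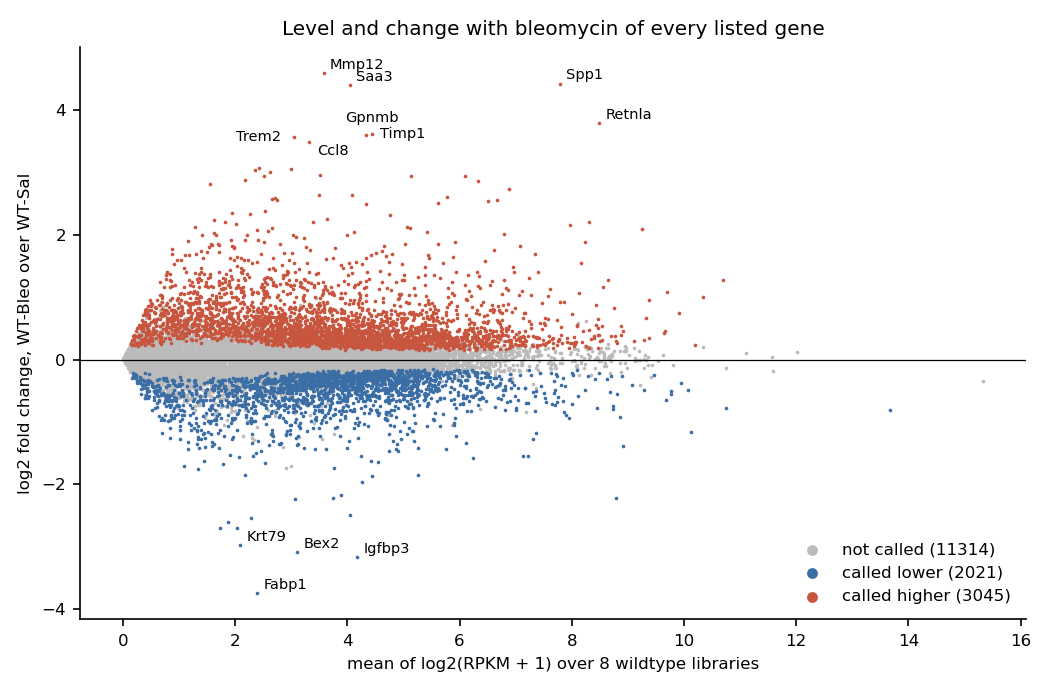
Each point is 1 of the 16380 listed genes. The horizontal axis gives the mean of log2(RPKM + 1) over the 8 wildtype libraries and the vertical axis the log2 fold change of WT-Bleo over WT-Sal. Coloured points are the 3045 genes called higher and the 2021 called lower, and the named genes are those with the largest changes. The increases reach further from 0 than the decreases.

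The 15 largest increases were led by genes of macrophages and of injured epithelium. Mmp12, the macrophage elastase, lay at 1.72, 1.4, 1.29 and 1.34 RPKM in WT-Sal and 50.9, 68.3, 64.7 and 49.3 RPKM in WT-Bleo. Spp1, which encodes the secreted phosphoprotein osteopontin (gene ID 20750, chromosome 5 from 104435111 to 104441053 in GRCm38), lay at 40.4, 48.2, 42.9 and 57.9 RPKM in WT-Sal and 955, 955, 1093 and 1100 RPKM in WT-Bleo. For both genes every bleomycin library was above every saline library, as the choice of these genes required. The gap was wide, also for the shallow replicate 6. Mmp12 rose by 4.59 (SE 0.12, adjusted p = 2.85e-08) and Spp1 by 4.42 (SE 0.11, adjusted p = 2.85e-08). Retnla, a secreted product of macrophages exposed to type 2 cytokines, lay at 98.9, 90.6, 114 and 83.1 RPKM in WT-Sal and 1492, 1450, 1353 and 1092 RPKM in WT-Bleo, and rose by 3.79 (SE 0.12, adjusted p = 1.02e-07). The other macrophage genes of this group were Gpnmb, a lysosomal glycoprotein gene (log2 fold change 3.60, adjusted p = 3.42e-08), Trem2, a lipid-sensing receptor gene (log2 fold change 3.57, adjusted p = 2.93e-07), Msr1, a scavenger receptor gene (log2 fold change 3.0, adjusted p = 1.09e-07), and Wfdc17 (log2 fold change 2.94, adjusted p = 5.29e-04). The group also held the monocyte-attracting chemokine genes Ccl8 (log2 fold change 3.48, adjusted p = 6.66e-05) and Ccl2 (log2 fold change 2.94, adjusted p = 1.0e-06). Whole lung RNA does not show which cells made these chemokines. The study also measured transcripts of human CCL2, there named MCP1, in cultured human bronchial epithelial cells stimulated with IL-31. It measured the protein in lung lysates of wildtype and knockout mice given bleomycin. Epithelial genes were the tight junction gene Cldn4 (log2 fold change 3.06, adjusted p = 2.08e-07), the cornified envelope gene Sprr1a (log2 fold change 3.07, adjusted p = 3.34e-06) and Clca1, a secreted product of goblet cells (log2 fold change 2.95, adjusted p = 1.66e-04). The remaining genes were Saa3, an acute phase protein gene (log2 fold change 4.40, adjusted p = 6.52e-06), Timp1, the inhibitor of matrix metalloproteinases (log2 fold change 3.61, adjusted p = 4.57e-07), and Psrc1, a spindle gene and p53 target (log2 fold change 3.03, adjusted p = 4.30e-07).

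The 15 largest decreases were of several cell types. Fabp1, a fatty acid binding protein gene that marks resident alveolar macrophages in mouse lung (gene ID 14080, chromosome 6 from 71199879 to 71205034 in GRCm38), lay at 20.1, 17.2, 16.4 and 19.3 RPKM in WT-Sal and 0.64, 0, 0.948 and 0.346 RPKM in WT-Bleo. Igfbp3, which encodes a binding protein of insulin-like growth factors (gene ID 16009, chromosome 11 from 7206086 to 7215498 in GRCm38), lay at 47.9, 55.3, 49.2 and 62.2 RPKM in WT-Sal and 5, 6.78, 4.62 and 4.07 RPKM in WT-Bleo. Every saline library was above every bleomycin library for both, as the choice of these genes required. Fabp1 fell by 3.74 on the log2 scale (adjusted p = 1.20e-06) and Igfbp3 fell by 3.17 (adjusted p = 4.79e-07). Fabp1 read 0 in replicate 6, and without that library its log2 fold change was -3.56. Krt79 (log2 fold change -2.97, adjusted p = 3.79e-06) and Ear1, an eosinophil-associated ribonuclease gene (log2 fold change -2.49, adjusted p = 2.45e-04), are also markers of alveolar macrophages. Inmt, an N-methyltransferase gene of lung fibroblasts, was the most abundant of the group and lay at 800.1, 991, 944 and 1086 RPKM in WT-Sal and 227, 205, 183 and 208 RPKM in WT-Bleo (log2 fold change -2.21 at an adjusted p of 6.93e-07). Lrat, which makes retinyl esters for storage, changed by -2.17 (adjusted p = 2.01e-05), and Npr3, the clearance receptor of natriuretic peptides, by -1.96 (adjusted p = 3.94e-05). Cyp1a1, a target of the aryl hydrocarbon receptor, changed by -2.69 (adjusted p = 1.19e-04), and Alas2, which starts haem synthesis in red cell precursors, by -1.86 (adjusted p = 2.11e-04). The rest of the group were Bex2 (-3.08), Cst8 (-2.69), Colq (-2.60), Slc7a10 (-2.53), Nrn1 (-2.23) and Acoxl (-2.21).

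**Figure D2:**
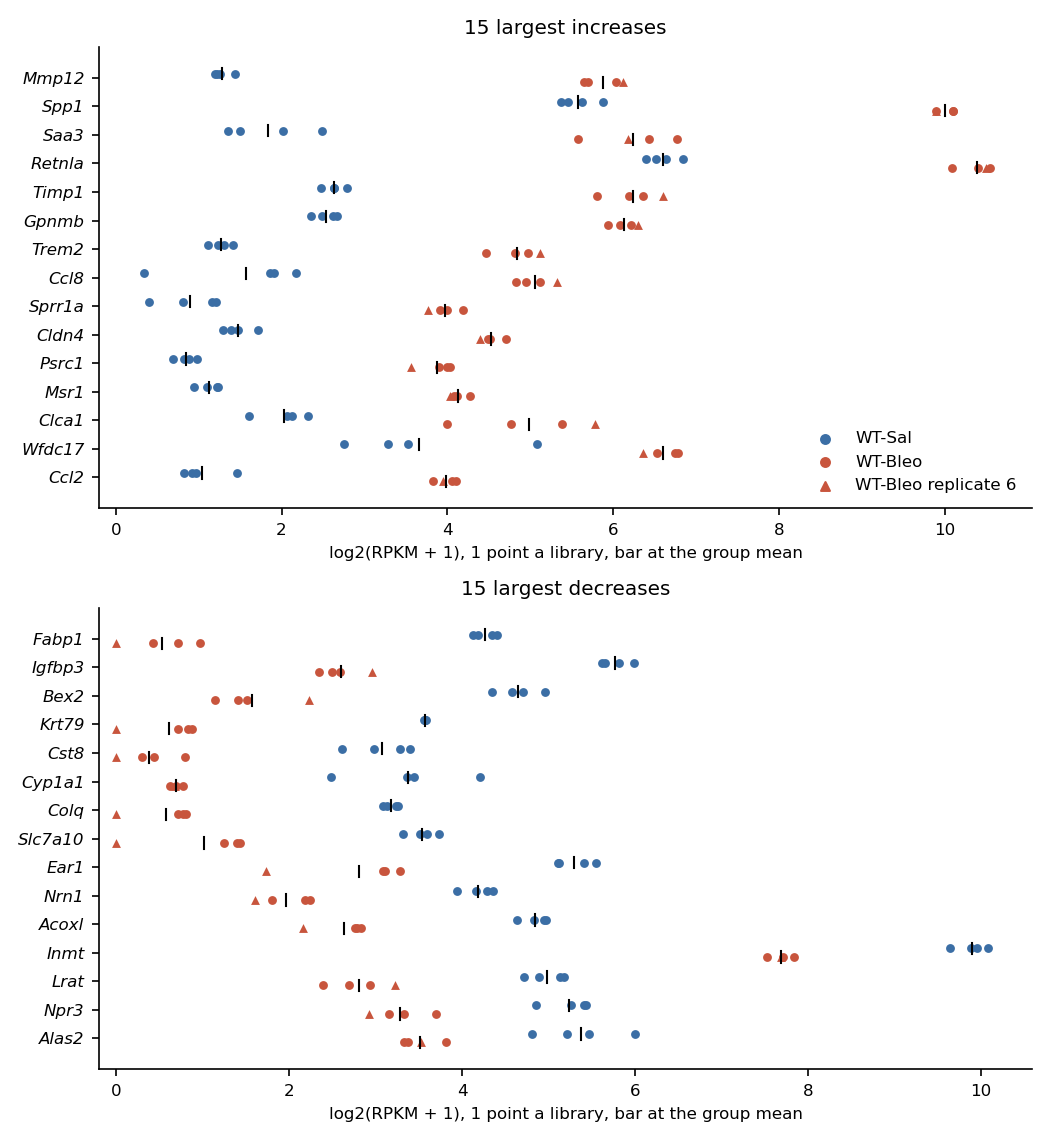
Each point is 1 library and the horizontal axis gives log2(RPKM + 1), with WT-Sal and WT-Bleo in different colours and short bars at the group means. The upper panel holds the 15 largest increases and the lower panel the 15 largest decreases. Only called genes whose groups did not overlap could enter these panels, so the separation of the groups was a condition of the choice. Replicate 6, drawn as a triangle, reads 0 in Fabp1, Krt79, Cst8, Colq and Slc7a10.

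Targets of p53 rose almost as a whole. Of 30 listed targets, 26 were called higher and 2 lower, with a median log2 fold change of 0.85. Their mean log2 level lay between 3.36 and 3.40 in WT-Sal and between 4.39 and 4.51 in WT-Bleo. Ccng1, which encodes cyclin G1 and feeds back on p53 (gene ID 12450, chromosome 11 from 40748552 to 40755309 in GRCm38), lay at 56.9, 53.5, 54.6 and 51.6 RPKM in WT-Sal and 219.7, 225, 215 and 225 RPKM in WT-Bleo. Cdkn1a, which encodes the cell cycle inhibitor p21 (gene ID 12575, chromosome 17 from 29090979 to 29100722 in GRCm38), lay at 61.8, 66.4, 96.1 and 63.3 RPKM in WT-Sal and 262, 245, 237 and 264 RPKM in WT-Bleo. The 4 bleomycin libraries were close to each other for both genes and far above all saline libraries. Ccng1 rose by 2.01 (SE 0.05, adjusted p = 2.85e-08) and Cdkn1a by 1.82 (SE 0.13, adjusted p = 9.81e-06).

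The p53 targets are given by their roles. Among genes that kill the cell, Bax, which opens the mitochondrial membrane, lay at 30.3, 30.7, 32.2 and 30.3 RPKM in WT-Sal and 90.5, 59, 80 and 85.3 RPKM in WT-Bleo (log2 fold change 1.30 at an adjusted p of 3.93e-05). Phlda3, which restrains Akt, rose by 2.05 (adjusted p = 6.40e-07), the death receptor genes Eda2r and Tnfrsf10b by 2.33 and 0.82, and Pmaip1, which encodes Noxa, by 0.77. Bbc3, which encodes Puma, and Fas were not called (log2 fold change 0.30, adjusted p = 0.0881 and log2 fold change -0.07, adjusted p = 0.77), although Bbc3 was called higher without WT-Sal replicate 2 (adjusted p = 0.0463). Among genes that restrain p53 or growth, Mdm2, the ligase that degrades p53, rose by 0.80 (adjusted p = 4.58e-05), and Sesn2, Btg2, Plk2, Plk3 and Ddit4l rose by 1.37, 0.46, 0.77, 0.77 and 1.30. Zmat3, an RNA-binding protein gene, rose by 1.54 (adjusted p = 1.27e-05). Gdf15, a secreted stress factor, lay at 0.299, 0.324, 0.377 and 0.337 RPKM in WT-Sal and 6.72, 1.54, 5.12 and 5.69 RPKM in WT-Bleo and rose by 2.0 (adjusted p = 8.66e-04). The spindle genes Psrc1, Gtse1 and Ckap2 rose by 3.03, 1.73 and 1.82. Smaller increases were called for Polk, a polymerase gene that copies damaged DNA (0.88), the nuclease gene Aen (1.06), Ak1 (1.36), Ei24 (0.60), Dcxr (0.59), Trp53inp1 (0.79), Pvt1 (0.68) and Perp (0.26). Against the trend, Rrm2b, which supplies nucleotides for repair, fell by 0.55 (adjusted p = 0.00177) and Sesn1 fell by 0.36 (adjusted p = 0.015).

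The promoters of these genes were searched for a p53 full site, a pair of p53 half-sites back to back with at most 2 mismatches, because p53 binds such pairs. The windows run from 250 bases before to 50 after the RefSeq transcription start (GRCm38.p6), both strands were read, and 23 of the 30 targets had a window. A site stood in 4 of the 23 (17.4%), against 61 of 12871 listed genes (0.474%). With at most 1 mismatch it stood in 3 targets (13%) and 8 listed genes (0.0622%). Upstream sequence is shown for 3 of them, whose site lies wholly before the start, to let the site be read beside the values above. Capitals mark the site, read 5′ to 3′ along the strand of the gene, in chr11:40755422-40755501 (minus strand) for Ccng1, chr8:22185963-22186042 (minus strand) for Ckap2 and chr17:29090899-29090978 (plus strand) for Cdkn1a.
Ccng1: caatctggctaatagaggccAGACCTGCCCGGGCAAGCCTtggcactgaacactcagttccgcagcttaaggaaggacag
Ckap2: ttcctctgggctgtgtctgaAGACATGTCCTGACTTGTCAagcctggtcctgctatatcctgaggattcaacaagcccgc
Cdkn1a: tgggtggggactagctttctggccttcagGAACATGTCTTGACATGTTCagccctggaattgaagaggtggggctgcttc
The sites of Ccng1 and Cdkn1a hold 1 mismatch and that of Ckap2 holds 2. A match is a description of the letters and does not show that p53 bound there in these lungs.

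Genes of DNA replication and mitosis rose as well. Of 22 replication genes, 18 were called higher and 0 lower (median log2 fold change 0.65), and of 24 mitosis genes, 23 were called higher and 0 lower (median 0.92). Rrm1 and Rrm2, the subunits of ribonucleotide reductase, rose by 1.07 (adjusted p = 8.87e-06) and 1.35 (adjusted p = 9.22e-05). The helicase subunits Mcm5, Mcm3 and Mcm2 rose by 0.88, 0.75 and 0.69. Cdk1, the kinase that starts mitosis, lay at 2.38, 1.39, 1.12 and 1.05 RPKM in WT-Sal and 4.82, 6.94, 5.85 and 6.15 RPKM in WT-Bleo, and Ube2c, which feeds the anaphase-promoting complex, at 4.82, 3.44, 3.43 and 4.44 RPKM in WT-Sal and 11.2, 8.89, 13.2 and 11.5 RPKM in WT-Bleo. Both were low in all libraries, and the groups did not overlap. Cdk1 rose by 1.5 (SE 0.17, adjusted p = 1.55e-04) and Ube2c by 1.28 (SE 0.13, adjusted p = 9.40e-05), and Ccnb1, the cyclin partner of Cdk1, by 1.47 (adjusted p = 4.41e-04). Tpx2 and Prc1, which build the spindle, rose by 1.26 (adjusted p = 1.61e-04) and 1.19 (adjusted p = 2.11e-04). The mean log2 level of the mitosis genes lay between 1.36 and 1.86 in WT-Sal and between 2.37 and 2.61 in WT-Bleo. So cell cycle genes and the gene of the inhibitor p21 were both higher in the same libraries.

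Promoters of mitosis genes often hold a CCAAT box, bound by NF-Y, and the letters TTTGAA, the core of the cell cycle homology region at which the DREAM and MuvB complexes keep such genes silent in resting cells. Both stood, on either strand, in 14 of 19 mitosis genes with a window (73.7%), against 765 of 12871 listed genes (5.94%). The count did not exclude motifs that overlap. CCAAT alone stood in 17 of the 19 (89.5%) and in 41.9% of listed genes, and TTTGAA in 73.7% and 15.1%. Among 17 replication genes with a window, 2 held both (11.8%). The upstream windows of the 4 such mitosis genes with the largest increases, all motifs lying before the start, show the spacing. They are chr10:69352913-69353130 (minus strand) for Cdk1, chr2:164769691-164769915 (plus strand) for Ube2c, chr11:99024197-99024426 (minus strand) for Top2a, the DNA topoisomerase of dividing cells, and chr4:118437344-118437423 (minus strand) for Cdc20, the activator of anaphase, with both motifs in capitals in either orientation.
Cdk1: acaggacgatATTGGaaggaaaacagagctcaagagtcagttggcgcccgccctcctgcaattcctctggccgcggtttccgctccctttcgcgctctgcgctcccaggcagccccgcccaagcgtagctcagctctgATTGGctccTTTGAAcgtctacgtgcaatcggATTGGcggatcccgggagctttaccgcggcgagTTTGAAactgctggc
Ube2c: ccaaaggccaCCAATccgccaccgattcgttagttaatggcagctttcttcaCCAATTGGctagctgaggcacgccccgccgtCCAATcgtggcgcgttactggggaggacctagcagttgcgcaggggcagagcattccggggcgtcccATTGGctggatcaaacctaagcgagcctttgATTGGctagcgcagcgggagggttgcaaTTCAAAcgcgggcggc
Top2a: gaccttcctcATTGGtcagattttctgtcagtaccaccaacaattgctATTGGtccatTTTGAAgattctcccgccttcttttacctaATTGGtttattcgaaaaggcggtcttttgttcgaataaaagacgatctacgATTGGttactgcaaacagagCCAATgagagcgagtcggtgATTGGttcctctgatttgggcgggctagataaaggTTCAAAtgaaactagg
Cdc20: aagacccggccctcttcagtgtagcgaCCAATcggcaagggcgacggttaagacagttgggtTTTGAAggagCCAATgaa
All 4 hold more than 1 CCAAT box or its reverse complement ATTGG, and at least 1 TTTGAA or TTCAAA. Top2a rose by 1.22 (adjusted p = 0.00307) and Cdc20 by 1.17 (adjusted p = 6.17e-04). These letters were found in the windows, and binding was not measured.

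Genes that mend DNA breaks moved less. Of 28, 12 were called higher and 2 lower (median log2 fold change 0.26), and 17 and 3 without replicate 6. Among the genes called higher were the checkpoint kinase gene Chek2 (log2 fold change 0.59, adjusted p = 4.12e-04) and the helicase gene Blm (log2 fold change 0.61, adjusted p = 0.00138), with Rad54l at 0.56 and Exo1 at 0.40. Many of these genes were near the lowest measurable levels: with a mean of at least 1 RPKM required, 7 of the list were called higher. Of 20 genes of bleomycin inactivation and antioxidant defence, 12 were higher and 2 lower (median 0.37). Hmox1, the inducible haem oxygenase gene, rose by 1.37 (adjusted p = 4.49e-05), Txnrd1, a thioredoxin reductase gene, by 0.60 (adjusted p = 6.22e-05), and Slc7a11, which imports cystine, by 0.88 (adjusted p = 9.65e-05). The metal-binding gene Mt2 lay at 32.8, 24.4, 40.1 and 21.2 RPKM in WT-Sal and 315, 217, 125 and 249 RPKM in WT-Bleo (log2 fold change 2.86 at an adjusted p of 6.19e-05). Catalase went the other way, as Cat fell by 0.61 (adjusted p = 2.48e-05).

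Alveolar type 2 cells secrete surfactant and replace lost type 1 cells. Of 18 marker genes, 2 were called higher and 12 lower, with a median log2 fold change of -0.35. Sftpc, which encodes surfactant protein C (gene ID 20389, chromosome 14 from 70520941 to 70524081 in GRCm38), lay at 17512, 16025, 19466 and 16147 RPKM in WT-Sal and 9823, 9347, 10075 and 10407 RPKM in WT-Bleo. Sftpa1, which encodes surfactant protein A, lay at 1613, 1739, 1685 and 1613 RPKM in WT-Sal and 775, 648, 746 and 819 RPKM in WT-Bleo. No bleomycin library reached the lowest saline library in either gene. Sftpc changed by -0.80 (SE 0.08, adjusted p = 6.05e-05) and Sftpa1 by -1.16 (SE 0.08, adjusted p = 6.24e-06). Slc34a2, the phosphate transporter gene of these cells, changed by -0.92 (adjusted p = 8.35e-06), Lamp3, a gene of the lamellar body, by -0.84 (adjusted p = 4.17e-05), and Sftpb, Abca3 and Lpcat1, needed to make and pack surfactant, by -0.37, -0.40 and -0.40. Cxcl15 and Chil1 changed by -0.55 and -0.31. Sftpd, which encodes the collectin surfactant protein D, was not called, lay at 579, 652, 662 and 602 RPKM in WT-Sal and 695, 579, 609.9 and 636 RPKM in WT-Bleo, and changed by 0.01 (adjusted p = 0.905). Napsa, a protease gene that processes surfactant protein B, was not called either (log2 fold change -0.05, adjusted p = 0.634), nor were Fasn (-0.26) and Rbpjl (0.04). Fasn was called lower without replicate 6 (log2 fold change -0.35, adjusted p = 0.00627). Scd1, a desaturase gene of lipid synthesis, and Il33, an alarmin gene, rose by 0.67 (adjusted p = 1.96e-04) and 0.36 (adjusted p = 0.0124). The transcription factor genes Cebpa, Etv5 and Nkx2-1 were called lower (log2 fold change -0.33, adjusted p = 0.0155, log2 fold change -0.36, adjusted p = 0.0215 and log2 fold change -0.24, adjusted p = 0.0352). The calls of Etv5 and Nkx2-1 were lost without any 1 of several libraries (adjusted p up to 0.0644 and 0.0961): WT-Bleo replicate 5 and WT-Sal replicates 1, 2 and 4 for both, and WT-Bleo replicate 8 for Nkx2-1. That of Cebpa was lost when all 4 groups shared 1 estimate of the spread (adjusted p = 0.058). Genes of the same secreted film thus ranged from -1.16 to 0.01.

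Alveolar type 1 cells are the thin cells across which gas is exchanged. Their 18 markers split evenly, with 6 called higher, 6 lower and a median of -0.01, and their mean log2 level lay between 7.09 and 7.21 in WT-Sal and between 7.15 and 7.22 in WT-Bleo. Hopx, which encodes a homeodomain cofactor, lay at 288, 297, 288 and 276 RPKM in WT-Sal and 185, 172, 191 and 176 RPKM in WT-Bleo (log2 fold change -0.67 at an adjusted p of 2.21e-05). Pdpn, which encodes podoplanin, lay at 77.3, 73.3, 73 and 70.2 RPKM in WT-Sal and 131, 115, 129.7 and 126 RPKM in WT-Bleo (log2 fold change 0.76 at an adjusted p of 1.49e-05). These classical markers moved in opposite directions, each without overlap between the groups. Pdpn is also counted in the list of lymphatic endothelium below, so its rise cannot be assigned to type 1 cells. Ager, the most used marker, was not called and lay at 557, 598, 581 and 576 RPKM in WT-Sal and 595, 611, 562 and 528 RPKM in WT-Bleo (log2 fold change -0.01 at an adjusted p of 0.895). The other genes called lower were Cav1, the caveolin gene (-0.55), Clic5 (-0.40), Rtkn2 (-0.61), Vegfa, which encodes a growth factor of endothelium (-0.38), and Sec14l3 (-0.27). Those called higher were Igfbp2 (1.12), Spock2 (0.34), the sodium channel gene Scnn1g (0.32), Gprc5a (0.28) and the water channel gene Aqp5 (0.22). Cldn18, Emp2, Akap5, Col4a4 and Col4a3 were not called, with log2 fold changes between -0.18 and 0.15. Akap5 was called lower without WT-Sal replicate 3 (adjusted p = 0.0253). The call of Sec14l3 was lost without WT-Sal replicate 1, 2 or 4 (adjusted p up to 0.0756).

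The Krt8-high transitional state lies between type 2 and type 1 cells after injury. Of its 18 genes, 17 were called higher and 0 lower (median log2 fold change 1.12), and the mean log2 level lay between 4.14 and 4.32 in WT-Sal and between 5.32 and 5.60 in WT-Bleo. Cldn4, at 1.63, 1.46, 1.79 and 2.28 RPKM in WT-Sal and 25.2, 20.1, 21.8 and 21.5 RPKM in WT-Bleo, and Clu, the gene of the secreted chaperone clusterin, at 102, 104, 104 and 99.8 RPKM in WT-Sal and 270.2, 283, 257 and 288 RPKM in WT-Bleo, show the range of levels in this list. Both were tightly grouped within each treatment. Clu rose by 1.41 (SE 0.05, adjusted p = 2.80e-07), and Lgals3, which encodes galectin-3 and is also high in macrophages, by 1.27 (adjusted p = 2.45e-06). Ereg, which encodes the growth factor epiregulin, lay at 0.0931, 0.202, 0.216 and 0.0999 RPKM in WT-Sal and 4.38, 2.4, 3.02 and 3.62 RPKM in WT-Bleo (log2 fold change 1.90 at an adjusted p of 1.49e-05). Of 10 listed genes of basal and squamous epithelium, 6 were called higher, with Krt5 at 0.0586, 0.159, 0.156 and 0.142 RPKM in WT-Sal and 3.09, 1.51, 1.7 and 3.76 RPKM in WT-Bleo (log2 fold change 1.59 at an adjusted p of 2.80e-04), Krt17 at 1.16, Krt15 at 1.25 and Trp63, the master regulator of basal cells, at 0.49. These genes were near 0 in saline lungs, and where at least 10 reads in at least 4 libraries were required, 2 of them were called. Krt14 and Krt6a read 0 in replicate 6, and their calls (log2 fold change 1.04, adjusted p = 0.0442 and log2 fold change 0.77, adjusted p = 0.0428) were lost without any 1 of the other libraries (adjusted p up to 0.106 and 0.103), and with a pseudocount of 0.1 for Krt14 and of 5 for Krt6a.

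**Figure D3:**
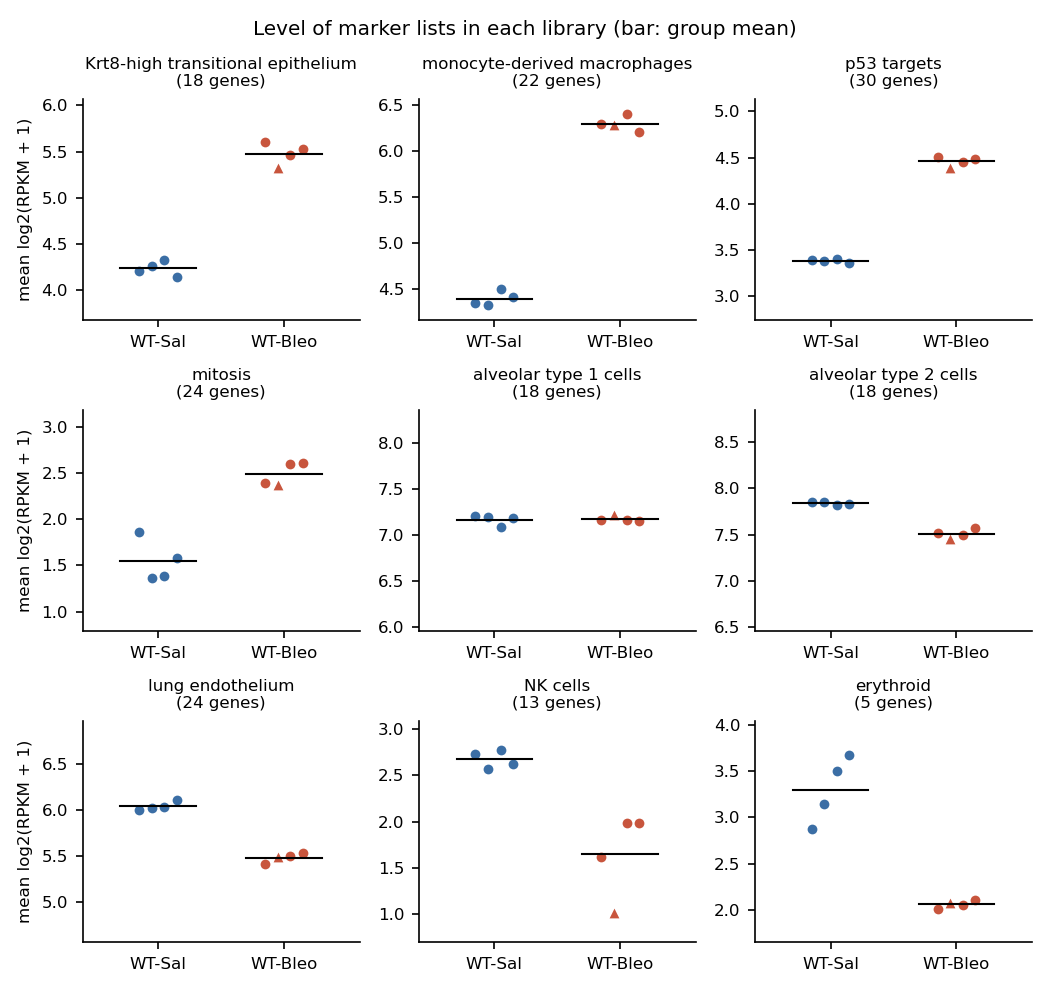
Each panel is a marker list and each point 1 library. The vertical axis gives the mean of log2(RPKM + 1) over the measured members of the list, with WT-Sal to the left and WT-Bleo to the right, and replicate 6 drawn as a triangle. The lists of Krt8-high epithelium, monocyte-derived macrophages, p53 targets and mitosis lie higher with bleomycin, those of type 2 cells, lung endothelium, NK cells and erythroid cells lower, and the type 1 list does not separate.

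In the airways, several secretory genes rose and few ciliary genes were called. Of 19 club and goblet cell genes, 8 were higher and 4 lower. Reg3g, an antibacterial lectin gene, lay at 21.9, 46.7, 50.8 and 76.7 RPKM in WT-Sal and 325, 299.7, 284 and 314 RPKM in WT-Bleo (log2 fold change 2.74 at an adjusted p of 1.16e-04). Agr2, which folds mucins, rose by 2.38 (adjusted p = 2.43e-04), Muc5ac, the gel-forming mucin of goblet cells, by 0.78 (adjusted p = 2.95e-04), and Ltf, which encodes lactoferrin, by 2.11 (adjusted p = 8.78e-05). Of 18 ciliated cell genes, 1 was called higher and 1 lower, with a median of -0.03. The lower gene was Tppp3, a tubulin-binding protein gene, at 224, 265, 253 and 247 RPKM in WT-Sal and 126, 102, 114 and 96.8 RPKM in WT-Bleo (log2 fold change -1.17 at an adjusted p of 1.49e-05), and the other ciliated genes did not follow it. The higher gene was Cfap52 (log2 fold change 0.38, adjusted p = 0.026), and its call was lost without WT-Sal replicate 1, 3 or 4 or WT-Bleo replicate 5 or 7 (adjusted p up to 0.0741).

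Structural matrix genes rose in number and in abundance. Of 28 interstitial collagen and matrix genes, 19 were called higher and 1 lower (median log2 fold change 0.78). Fn1, which encodes fibronectin, the scaffold on which collagen is laid, lay at 42.5, 38.9, 38.9 and 42.5 RPKM in WT-Sal and 249, 295, 199 and 244 RPKM in WT-Bleo. Col1a1, which encodes the main chain of type I collagen, lay at 34.3, 37.4, 36.4 and 38.6 RPKM in WT-Sal and 92.7, 119, 80.1 and 106 RPKM in WT-Bleo. In both genes replicate 6 was the highest bleomycin library, and the groups were far apart. Fn1 rose by 2.56 (SE 0.10, adjusted p = 4.57e-07) and Col1a1 by 1.40 (SE 0.11, adjusted p = 1.81e-05), beside Col1a2 (log2 fold change 1.14, adjusted p = 1.06e-05), Col3a1 (log2 fold change 0.93, adjusted p = 8.05e-05) and Col5a2, a chain of type V collagen (log2 fold change 1.49, adjusted p = 3.52e-06). Of 20 matricellular genes, 13 were higher and 3 lower (median 0.86). Tnc, which encodes tenascin-C and is high in wounds, lay at 4.34, 3.99, 3.51 and 2.46 RPKM in WT-Sal and 29.1, 23.5, 22.1 and 35.2 RPKM in WT-Bleo (log2 fold change 2.63 at an adjusted p of 5.82e-06). Ltbp2 rose by 1.68 (adjusted p = 2.24e-05) and Sparc, a collagen chaperone gene, by 1.08 (adjusted p = 2.41e-05), while Thbs3, a thrombospondin gene, fell by 1.01 (adjusted p = 3.26e-05).

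The basement membrane genes followed, with 12 of 21 higher and 1 lower (median 0.34). Col4a1 and Col4a2, the common chains of type IV collagen, rose by 1.13 (adjusted p = 6.22e-06) and 1.10 (adjusted p = 8.35e-06). The chains Col4a3 and Col4a4, of the alveolar membrane, were not called (above). The laminin chain gene Lama1 rose by 1.47 (adjusted p = 2.38e-05), and Col18a1, the precursor of endostatin, by 1.09 (adjusted p = 7.01e-06). Of 21 genes that process and cross-link collagen, 9 were higher and 3 lower. Lox, which encodes lysyl oxidase, lay at 20.3, 15.8, 23.2 and 17.9 RPKM in WT-Sal and 49.8, 64.6, 41 and 48.2 RPKM in WT-Bleo (log2 fold change 1.35 at an adjusted p of 1.16e-04), and its relatives Loxl2 and Loxl3 rose by 0.91 (adjusted p = 2.49e-05) and 0.61 (adjusted p = 3.97e-04). P4ha3, a prolyl hydroxylase gene, rose by 1.37 (adjusted p = 1.03e-04). Pcolce2, an enhancer of procollagen trimming, was the most changed gene of this list downwards, at 121, 128, 148 and 121 RPKM in WT-Sal and 38, 53.2, 41.2 and 40 RPKM in WT-Bleo (log2 fold change -1.57 at an adjusted p of 8.67e-06).

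Most listed genes of matrix-degrading enzymes and their inhibitors were higher. Of 31 genes, 21 were called higher and 3 lower (median 0.75), and 19 and 6 without replicate 6. Timp1 lay at 5.92, 5.19, 5.22 and 4.56 RPKM in WT-Sal and 72, 95.8, 55 and 81.5 RPKM in WT-Bleo and rose by 3.61 (SE 0.15, adjusted p = 4.57e-07). Ctsk, which encodes cathepsin K, a collagenase of macrophages and fibroblasts, rose by 2.12 (adjusted p = 9.29e-07). Mmp14, a membrane-bound activator of gelatinase, rose by 1.33 (adjusted p = 1.87e-06), Mmp13, a collagenase gene, by 1.2 (adjusted p = 2.49e-05), and Adam8 by 1.61 (adjusted p = 2.86e-06). Of 12 hyaluronan genes, 3 were called higher (25%, against 18.6% of all genes) and 1 lower (8.33%, against 12.3%). The synthase Has2 (log2 fold change 0.77, adjusted p = 0.00313) and the receptor Cd44 (log2 fold change 0.35, adjusted p = 0.005) were among the higher genes. Without replicate 6 the hyaluronan counts were 5 and 2.

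Contractile genes of smooth muscle and myofibroblasts were called in both directions, in shares not far from those of all genes. Of 15, 4 were called higher (26.7%, against 18.6% of all genes) and 2 lower (13.3%, against 12.3%), with a median of 0.10. Tagln, which encodes SM22, lay at 67.1, 75.9, 77.7 and 69.8 RPKM in WT-Sal and 123, 144, 95.3 and 92.9 RPKM in WT-Bleo (log2 fold change 0.62 at an adjusted p of 0.00609). Acta2, the usual marker of myofibroblasts, lay at 44.2, 52.4, 55 and 56 RPKM in WT-Sal and 77.3, 92, 56.7 and 64.8 RPKM in WT-Bleo and was called higher (log2 fold change 0.46, adjusted p = 0.0317). The groups did not overlap for either gene, but WT-Bleo replicate 7 lay close to the saline libraries in Acta2. Its call was lost after median-of-ratios scaling, with a spread shared by all 4 groups, and without WT-Bleo replicate 5 or any 1 WT-Sal library (adjusted p up to 0.0908). Tpm1 and Cald1, which bind actin, rose by 0.41 (adjusted p = 0.00176) and 0.46 (adjusted p = 8.93e-04), and Mylk, the kinase of smooth muscle contraction, fell by 0.52 (adjusted p = 1.19e-04). The naming rule does not cover Acta2, which was added after seeing its values. Of 20 genes of resident fibroblasts and pericytes, 5 were higher and 9 lower (median -0.17). Rgs5, a regulator of G protein signalling in pericytes, lay at 3.05, 2.71, 3.38 and 3.16 RPKM in WT-Sal and 15.2, 15.3, 16.1 and 14.7 RPKM in WT-Bleo (log2 fold change 2.0 at an adjusted p of 2.93e-07). Cd34, of adventitial fibroblasts and endothelium, rose by 0.96 (adjusted p = 4.04e-06), while Npnt and Limch1, of alveolar fibroblasts, changed by -0.70 (adjusted p = 1.18e-04) and -0.70 (adjusted p = 1.36e-04).

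Signals between cells changed in both directions. In the TGF-beta list, the main fibrotic pathway, 7 of 20 genes were higher and 4 lower (median 0.15). Inhba, which encodes a subunit of the ligand activin A, lay at 0.785, 0.589, 0.621 and 0.761 RPKM in WT-Sal and 3.4, 2.85, 2.91 and 3.17 RPKM in WT-Bleo (log2 fold change 1.27 at an adjusted p of 1.68e-05). The ligand gene Tgfb2 rose by 0.86 (adjusted p = 6.88e-05), while Ltbp4, which stores the latent ligand, and the co-receptor gene Tgfbr3 changed by -1.07 (adjusted p = 1.17e-05) and -0.74 (adjusted p = 6.22e-05). In the BMP list, which often opposes TGF-beta, 4 of 23 were higher and 8 lower. The receptor gene Bmpr2, mutated in heritable pulmonary hypertension, lay at 103, 101, 93.5 and 108 RPKM in WT-Sal and 60.8, 68.7, 64.4 and 67.6 RPKM in WT-Bleo (log2 fold change -0.63 at an adjusted p of 7.06e-05). The ligand gene Bmp6 changed by -1.28 (adjusted p = 8.39e-05) and the inhibitory Smad6 by -0.88 (adjusted p = 3.72e-04). The secreted antagonists Nog and Grem1 went up from near 0, by 1.53 (adjusted p = 1.21e-04) and 1.02 (adjusted p = 4.59e-04). The count of higher BMP genes moved with single libraries, from 2 without WT-Bleo replicate 5, WT-Bleo replicate 8 or WT-Sal replicate 1 to 7 without WT-Bleo replicate 6.

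Of 25 WNT genes, 7 were higher and 9 lower. Sfrp1, a secreted WNT antagonist of activated fibroblasts, lay at 5.4, 5.54, 6.11 and 6 RPKM in WT-Sal and 38.8, 49.6, 33.1 and 45.2 RPKM in WT-Bleo (log2 fold change 2.64 at an adjusted p of 5.84e-07). The ligands Wnt7b and Wnt5a rose by 1.14 (adjusted p = 2.58e-05) and 0.67 (adjusted p = 0.00109), and the receptor gene Fzd4 and the transcription factor gene Lef1 changed by -0.56 (adjusted p = 3.54e-04) and -0.68 (adjusted p = 0.00132). Among 10 genes of insulin-like growth factors, 5 were higher and 4 lower. Igf1, a growth factor of macrophages and fibroblasts, lay at 8.58, 5.42, 6.57 and 6.51 RPKM in WT-Sal and 17.8, 24.9, 25.1 and 23.7 RPKM in WT-Bleo (log2 fold change 1.62 at an adjusted p of 3.18e-05). Of its binding proteins, Igfbp2 and Igfbp4 rose by 1.12 and 0.76, and Igfbp3 and Igfbp6 changed by -3.17 and -1.44.

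**Figure D4:**
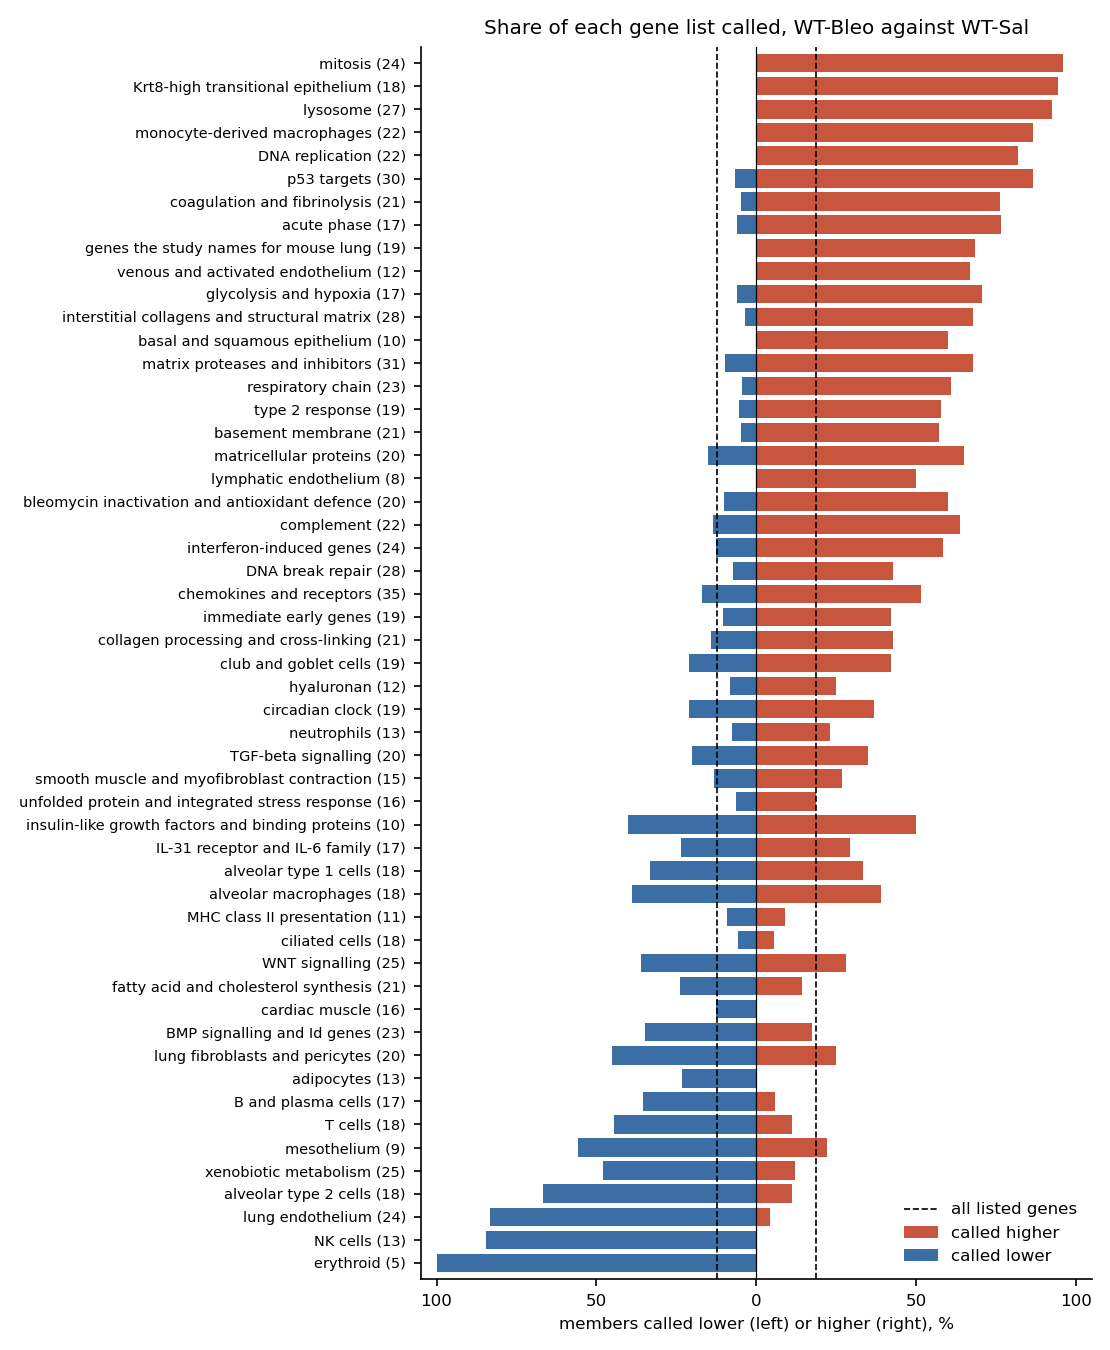
Each bar gives the share of a list's measured members called higher (to the right) or lower (to the left) with bleomycin, in percent, with the number of measured members beside the name. Dashed lines mark the shares over all 16380 genes, 18.6% higher and 12.3% lower. Mitosis, lysosome and Krt8-high lists have the longest bars to the right and the erythroid, NK and lung endothelium lists to the left.

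Genes of monocyte-derived macrophages had the highest median of the 53 lists. Of 22, 19 were called higher and 0 lower (median log2 fold change 1.79), and the mean log2 level lay between 4.33 and 4.50 in WT-Sal and between 6.21 and 6.40 in WT-Bleo. The 3 not called were Cx3cr1 (log2 fold change 0.44, adjusted p = 0.0768), Ly6c2 (log2 fold change -0.04, adjusted p = 0.853) and Cd9 (log2 fold change -0.02, adjusted p = 0.813). The list is named for the use of its genes as markers, and the origin of the cells was not tested. Besides Spp1, Mmp12, Gpnmb and Trem2, the complement gene C1qa lay at 22.2, 17.7, 24.2 and 21.9 RPKM in WT-Sal and 137, 135, 147 and 122 RPKM in WT-Bleo and rose by 2.60 (SE 0.09, adjusted p = 2.17e-07). Ctsd, which encodes the lysosomal protease cathepsin D, lay at 292, 280.4, 316 and 289 RPKM in WT-Sal and 1236, 1262, 1292 and 1229 RPKM in WT-Bleo and rose by 2.09 (SE 0.05, adjusted p = 2.85e-08). Among 27 lysosomal genes 25 were higher and 0 lower (median 1.0), led by Cd68, the macrophage membrane protein gene (log2 fold change 1.85, adjusted p = 1.02e-07), the proteases Lgmn (log2 fold change 1.58, adjusted p = 2.08e-07) and Ctsb (log2 fold change 1.69, adjusted p = 2.08e-07), and Psap, the precursor of saposins (log2 fold change 1.28, adjusted p = 3.61e-07).

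Resident alveolar macrophages, which clear surfactant, gave a mixed picture. Of 18 genes, 7 were called higher and 7 lower, with a median of -0.02. The mean log2 level of the list lay lower in every bleomycin library (3.83 to 4.24) than in any saline library (4.48 or more). Itgax, which encodes CD11c, lay at 17.7, 14.4, 13.7 and 14.3 RPKM in WT-Sal and 33.2, 37.8, 33.6 and 31.6 RPKM in WT-Bleo (log2 fold change 1.13 at an adjusted p of 1.85e-05), and Atp6v0d2, a proton pump subunit gene, rose by 1.2 (adjusted p = 8.87e-06). On the other side were Fabp1, Krt79 and Ear1, named above, and Car4 (log2 fold change -0.83, adjusted p = 2.31e-05), which capillary endothelium also expresses. The genes called higher include Krt19, Bhlhe41 and Atp6v0d2, which other lists also count. Of those called lower, Cidec and Car4 are likewise in other lists. So within 1 list, genes used for the same cell type moved by up to -3.74 and 1.2 on the log2 scale.

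Complement genes rose, with 14 of 22 higher and 3 lower. C1qb and C1qc, the other chains of C1q, rose by 2.94 (adjusted p = 2.96e-07) and 2.51 (adjusted p = 5.98e-07), C3ar1, the receptor of C3a, by 2.57 (adjusted p = 9.38e-07), and Cfb, of the alternative pathway, by 1.82 (adjusted p = 1.33e-06). Of 35 chemokine and receptor genes, 18 were higher and 6 lower. Ccl2, the main attractant of monocytes, lay at 1.75, 0.777, 0.951 and 0.897 RPKM in WT-Sal and 13.2, 14.4, 15.6 and 16.2 RPKM in WT-Bleo and rose by 2.94 (SE 0.14, adjusted p = 1.0e-06). Ccl9 and Ccl6, made by macrophages, rose by 2.49 (adjusted p = 4.57e-07) and 1.55 (adjusted p = 1.23e-05), and Cxcl10, induced by interferon, by 2.06 (adjusted p = 1.17e-05). The number of chemokine genes called lower was 3 without WT-Sal replicate 3.

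Effector genes of type 2 inflammation, the response of the cytokines IL-4 and IL-13, were often higher. Of 19 measured genes, 11 were higher and 1 lower, and Il4, Il13 and Il13ra2 are not listed. The lower gene was Ccr3 (log2 fold change -0.50, adjusted p = 0.0419). Among the 7 not called were Il5, Gata3 and Il1rl1 (log2 fold changes -0.16, -0.03 and -0.04). Arg1, the arginase gene of macrophages, lay at 0.782, 2.54, 1.93 and 1.75 RPKM in WT-Sal and 18.5, 17.9, 12.3 and 12.8 RPKM in WT-Bleo (log2 fold change 2.59 at an adjusted p of 2.41e-05). Itln1, which encodes intelectin, was at or near 0 in all saline libraries and reached 1.58 to 4.36 RPKM with bleomycin (log2 fold change 1.69, adjusted p = 2.43e-04). The receptor chain gene Il4ra rose by 0.67 (adjusted p = 1.24e-04). Of 17 genes of the IL-31 receptor and the IL-6 family, 5 were higher and 4 lower. Osmr, which pairs with IL-31RA to form the IL-31 receptor, lay at 27.9, 25.1, 23.7 and 21.3 RPKM in WT-Sal and 35.1, 30, 33.7 and 38.1 RPKM in WT-Bleo (log2 fold change 0.47 at an adjusted p of 0.00448). Il31ra itself was not called (log2 fold change -0.09, adjusted p = 0.413). Socs3, a feedback target of this pathway, rose by 1.42 (adjusted p = 2.49e-05), the cytokine genes Lif and Osm by 1.91 (adjusted p = 2.30e-04) and 0.82 (adjusted p = 0.00683), and Il6ra fell by 0.74 (adjusted p = 0.00116). Il6 was not called and lay at 0.229, 0.124, 0.355 and 0.185 RPKM in WT-Sal and 1.83, 0, 2.39 and 1.42 RPKM in WT-Bleo (log2 fold change 0.85 at an adjusted p of 0.0731). Without replicate 6 it was called higher (log2 fold change 1.23, adjusted p = 2.26e-05). Of the 4 genes of this family called lower, between 1 and 3 were lost without WT-Bleo replicate 5, 7 or 8 or WT-Sal replicate 4.

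Interferon-induced genes were higher in part: 14 of 24 were called higher and 3 lower (median 0.54). Irf7, the transcription factor gene that amplifies the response, lay at 9.6, 8.52, 11.5 and 8.64 RPKM in WT-Sal and 28.2, 27.5, 22.5 and 28.2 RPKM in WT-Bleo (log2 fold change 1.39 at an adjusted p of 1.51e-05), with Oas2, Oas1a, Isg15 and Ifit3 at 1.21, 1.25, 1.41 and 1.04. Few genes of MHC class II presentation were called, with 1 of 11 called higher and 1 lower. H2-Aa lay at 384, 307, 393 and 342 RPKM in WT-Sal and 301, 320.4, 366 and 314 RPKM in WT-Bleo and its groups overlapped (log2 fold change -0.13, adjusted p = 0.327). The lower gene was H2-Ob, of B cells (log2 fold change -0.95, adjusted p = 0.00232), and the higher was H2-DMb1 (log2 fold change 0.26, adjusted p = 0.0215), whose call was lost after median-of-ratios scaling and without WT-Bleo replicate 7 or WT-Sal replicate 1, 2 or 4 (adjusted p up to 0.0644). Acute phase genes rose, 13 of 17 against 1 lower. Saa3 lay at 4.59, 1.83, 3.05 and 1.56 RPKM in WT-Sal and 85.4, 71.7, 46.9 and 108 RPKM in WT-Bleo and rose by 4.40 (SE 0.29, adjusted p = 6.52e-06). Lcn2, which encodes a siderophore-binding protein of epithelium and neutrophils, lay at 99.7, 118, 135 and 123 RPKM in WT-Sal and 610.4, 493, 481 and 542 RPKM in WT-Bleo (log2 fold change 2.15 at an adjusted p of 1.04e-06). Serpina3n rose by 2.54 (adjusted p = 4.04e-06) and Ptx3 by 1.69 (adjusted p = 1.76e-04), and Itih4 fell by 1.03 (adjusted p = 3.94e-05). The neutrophil list was called about as often as all genes, with a median of -0.41. Of its 13 genes, 3 were higher (23.1%, against 18.6% of all genes) and 1 lower (7.69%, against 12.3%). Lcn2 and Ltf, which are counted in other lists as well, were among the higher genes. Ly6g, Elane and Mpo are not listed. S100a9, an alarmin gene of neutrophils, lay at 51.8, 67.3, 283 and 46.5 RPKM in WT-Sal and 45.2, 28.9, 62.4 and 30 RPKM in WT-Bleo (log2 fold change -1.04 at an adjusted p of 0.165). The saline libraries differed more among themselves in S100a9 than the bleomycin libraries did.

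Most NK cell genes were lower, and part of the T and B cell genes. Of 13 NK cell genes, 0 were called higher and 11 lower (median log2 fold change -1.05), and the mean log2 level lay between 2.57 and 2.77 in WT-Sal and between 1.01 and 1.98 in WT-Bleo. Nkg7, a gene of cytotoxic granules, lay at 11, 9.92, 11.2 and 9.4 RPKM in WT-Sal and 3.78, 4.07, 4.93 and 5.31 RPKM in WT-Bleo. Ncr1, the NK cell receptor NKp46, lay at 5.88, 5.61, 5.03 and 4.87 RPKM in WT-Sal and 1.83, 3.39, 2.23 and 2.1 RPKM in WT-Bleo. The groups did not overlap for either gene, and the lowest level of the list, 1.01, was that of replicate 6. Nkg7 changed by -1.05 (SE 0.11, adjusted p = 7.93e-05) and Ncr1 by -0.92 (SE 0.14, adjusted p = 8.82e-04), the granzyme gene Gzma by -1.54 (adjusted p = 0.00288) and the receptor gene Klre1 by -1.68 (adjusted p = 0.00194). Without replicate 6 the counts of the NK list were the same (0 and 11) and its median was -1.01. Of 18 T cell genes, 2 were higher and 8 lower. The naive T cell factor genes Tcf7 and Lef1 changed by -0.47 (adjusted p = 0.00199) and -0.68 (adjusted p = 0.00132) and the receptor chain gene Cd3g by -0.46 (adjusted p = 0.00539), while Foxp3 and Ctla4, of regulatory T cells, rose by 0.50 (adjusted p = 0.0101) and 0.93 (adjusted p = 0.0022). The lower T cell genes numbered 3 without WT-Sal replicate 1 and 5 without WT-Sal replicate 3 or 4. Of 17 B and plasma cell genes, 1 was higher and 6 lower. The lower B cell genes numbered 3 without WT-Bleo replicate 5 or 8 or WT-Sal replicate 2, 3 or 4. The higher gene was Sdc1, which encodes syndecan-1 of plasma cells and epithelium (log2 fold change 0.60, adjusted p = 2.34e-05).

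Endothelial genes of the lung were lower almost throughout. Of 24 genes, 20 were called lower and 1 higher (median log2 fold change -0.59), and the mean log2 level lay between 6.00 and 6.11 in WT-Sal and between 5.42 and 5.53 in WT-Bleo. Ednrb, the endothelin receptor gene of capillaries (gene ID 13618, chromosome 14 from 103814615 to 103844508 in GRCm38), lay at 22.2, 25, 24.9 and 26.5 RPKM in WT-Sal and 9.41, 10.8, 8.92 and 8.68 RPKM in WT-Bleo. Tmem100, a target of BMP signals in lung capillaries, lay at 341, 327, 346 and 351 RPKM in WT-Sal and 179.8, 157, 190.5 and 184 RPKM in WT-Bleo. The saline libraries were all above the bleomycin libraries in both. Ednrb changed by -1.30 (SE 0.08, adjusted p = 5.41e-06) and Tmem100 by -0.94 (SE 0.07, adjusted p = 1.07e-05), beside Fibin (log2 fold change -1.43, adjusted p = 3.87e-05) and the phosphatase gene Ptprb (log2 fold change -0.67, adjusted p = 4.17e-05). Against this, the list of venous and activated endothelium had 8 of 12 genes higher and 0 lower (median 0.57). The 4 not called were Sele, Vcam1, Nr2f2 and Ephb4 (log2 fold changes 0.06, -0.08, 0.09 and -0.15). Ackr1, the atypical chemokine receptor of venules, lay at 0.776, 0.601, 0.368 and 0.357 RPKM in WT-Sal and 5.3, 5.72, 5.72 and 4.22 RPKM in WT-Bleo (log2 fold change 2.03 at an adjusted p of 5.97e-06). The adhesion molecules Selp and Icam1 rose by 1.29 (adjusted p = 2.57e-05) and 0.65 (adjusted p = 1.31e-05), and Lrg1 by 1.89 (adjusted p = 4.17e-05). Among 8 lymphatic genes 4 were higher, with Prox1, their master regulator, at 0.67 (adjusted p = 0.0158) and Mmrn1 at 0.54 (adjusted p = 1.54e-04). Pdpn, also a type 1 cell marker, was another of them.

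Markers of blood moved with the endothelial genes. All 5 erythroid genes listed were called lower (median -1.25), with a mean log2 level between 2.87 and 3.68 in WT-Sal and between 2.01 and 2.10 in WT-Bleo. Alas2 lay at 27.1, 36, 43.1 and 62.7 RPKM in WT-Sal and 9.38, 10.5, 9.02 and 13.1 RPKM in WT-Bleo. Haemoglobin genes are not listed. No source used here says whether the lungs were flushed of blood, and the part of blood content in the endothelial and lymphocyte counts was not tested. Of 16 cardiac muscle genes, which pulmonary veins express in mice, 0 were higher and 2 lower (12.5%, against 12.3% of all genes). Their mean log2 level lay between 2.84 and 3.60 in WT-Sal and between 2.62 and 3.09 in WT-Bleo. Without WT-Bleo replicate 6 there were 4 lower cardiac genes and without WT-Sal replicate 1 there were 5. Of 13 adipocyte genes, 3 were lower, and of 9 mesothelial genes, 2 were higher and 5 lower, or 3 lower without WT-Bleo replicate 5 or WT-Sal replicate 3 or 4.

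Coagulation and fibrinolysis genes rose, 16 of 21 against 1 lower (median 0.65). F7, which encodes coagulation factor VII, lay at 9.2, 8.77, 9.32 and 8.46 RPKM in WT-Sal and 22.4, 25, 20.9 and 22.9 RPKM in WT-Bleo (log2 fold change 1.26 at an adjusted p of 2.33e-06). Plau, which encodes the plasminogen activator urokinase, lay at 4.71, 4.63, 3.16 and 4.14 RPKM in WT-Sal and 14.6, 19.1, 18.7 and 15.8 RPKM in WT-Bleo (log2 fold change 1.81 at an adjusted p of 8.35e-06). Serpine2, which encodes an inhibitor of thrombin and urokinase, rose by 1.18 (adjusted p = 2.25e-06). F13a1, which cross-links fibrin and is made by macrophages, rose by 1.39 (adjusted p = 5.13e-05).

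Several clock genes differed. Of 19 genes of the circadian clock and its outputs, 7 were called higher and 4 lower. Arntl, which encodes the activator BMAL1, lay at 7.77, 12.5, 9.05 and 12.4 RPKM in WT-Sal and 3.03, 5.12, 3.12 and 2.85 RPKM in WT-Bleo. Dbp, an output gene driven by BMAL1, lay at 9.87, 4.77, 6.17 and 5.29 RPKM in WT-Sal and 16.3, 11.8, 20 and 16.9 RPKM in WT-Bleo. The groups did not overlap for either, and they moved in opposite directions: Arntl changed by -1.34 (SE 0.18, adjusted p = 5.46e-04) and Dbp by 1.22 (SE 0.21, adjusted p = 0.00171). The repressor genes Per3 and Per2 rose by 0.87 (adjusted p = 0.00354) and 0.62 (adjusted p = 0.0114), Bhlhe40 and Bhlhe41 by 1.05 (adjusted p = 2.49e-05) and 0.89 (adjusted p = 2.53e-04), and the output gene Tef by 0.49 (adjusted p = 0.00633). Clock, Rora and Nr1d1 changed by -0.43 (adjusted p = 0.00408), -0.42 (adjusted p = 0.00649) and -0.63 (adjusted p = 0.00375). Per1, Cry1, Cry2, Nr1d2, Ciart, Nfil3, Npas2 and Hlf were not called, with log2 fold changes from -0.39 to 0.23. Npas2 was called lower without replicate 6 (log2 fold change -0.66, adjusted p = 0.00856). No source used here gives the hour at which either group was sampled, so treatment and time of day cannot be told apart for these genes. The call of Nr1d1 was lost with a spread shared by all 4 groups (adjusted p = 0.0562).

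Immediate early genes, which answer growth factors, stress and handling of tissue within minutes, were partly higher, 8 of 19 against 2 lower. Egr1 lay at 13.7, 8.94, 10.3 and 5.99 RPKM in WT-Sal and 31.6, 24.2, 32.3 and 30.6 RPKM in WT-Bleo (log2 fold change 1.56 at an adjusted p of 3.26e-04). Junb, Egr2, Ier3 and Atf3 rose by 1.28, 1.32, 0.69 and 1.17. Of the genes of the unfolded protein response, 3 of 16 were called higher (18.8%, against 18.6% of all genes) and 1 lower (6.25%, against 12.3%). Among them were the chaperone gene Calr (log2 fold change 0.33, adjusted p = 0.0139) and Herpud1 (log2 fold change -0.60, adjusted p = 0.00223).

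Metabolic genes moved in both directions. Of 17 genes of glycolysis and hypoxia, 12 were higher and 1 lower (median 0.44). Pgam1 lay at 58.1, 52.3, 56 and 52.2 RPKM in WT-Sal and 98.2, 104, 95.4 and 97 RPKM in WT-Bleo (log2 fold change 0.84 at an adjusted p of 6.69e-06), and Pkm, Pgk1 and Ldha, which complete the path to lactate, rose by 0.67 (adjusted p = 2.57e-05), 0.58 (adjusted p = 8.10e-05) and 0.75 (adjusted p = 1.80e-04). Of 23 respiratory chain genes, 14 were higher and 1 lower, with a median of 0.25. These changes were small, and 9 were called higher after median-of-ratios scaling, as without WT-Bleo replicate 7 or WT-Sal replicate 4. Cox5a changed most among them (log2 fold change 0.72, adjusted p = 5.74e-05). Of 25 xenobiotic metabolism genes, 12 were lower and 3 higher (median -0.29). Cyp4b1, a cytochrome P450 gene that is high in lung, lay at 242, 262, 220.3 and 260.3 RPKM in WT-Sal and 118, 102, 93.6 and 93.9 RPKM in WT-Bleo (log2 fold change -1.27 at an adjusted p of 8.35e-06). Fmo1, Gstm1 and Aox3 changed by -1.33 (adjusted p = 5.75e-06), -0.83 (adjusted p = 1.0e-04) and -1.14 (adjusted p = 1.10e-04), and Ephx1, an epoxide hydrolase gene, rose by 0.88 (adjusted p = 3.53e-06). Of 21 genes of fatty acid and cholesterol synthesis, 3 were higher and 5 lower, with Acly, Idi1 and Insig1 among the latter at -0.47, -0.61 and -0.56.

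A further list holds 19 genes that the study names for mouse lung. Of these, 13 were called higher and 0 lower (median log2 fold change 1.24), and the study picked them with these same libraries, so their direction gives no independent support. The study also measured part of them by real-time PCR of lung RNA. It reports Col1a1, Col3a1, Fn1, Mmp13, Timp1, Il6, Krt5 and Krt14 as higher with bleomycin than with saline in wildtype mice. Of those, Il6 was not called here with all libraries, and the call of Krt14 was not stable (above). Apart from those above, Rgs4 and Rgs16, which end signalling through G proteins, rose by 1.24 (adjusted p = 1.48e-05) and 2.20 (adjusted p = 2.58e-05). Calcr, Krt4, Krt20, Ccl28 and Calcb were not called, with log2 fold changes between 0.16 and 0.47. Without replicate 6, 17 of the 19 were called higher, with Krt4, Krt20 and Calcr among those gained (adjusted p = 0.00175, 0.0315 and 0.0391). Calcr was also called without WT-Bleo replicate 8 or WT-Sal replicate 1 (adjusted p as low as 0.0221). The list leaves out 3 potassium channel genes that the study also names. Kcna2 lay at 2.85, 3.15, 2.78 and 3.31 RPKM in WT-Sal and 0.7, 0.429, 0.534 and 0.628 RPKM in WT-Bleo and was called lower (log2 fold change -1.36, adjusted p = 1.49e-05), and Kcnh4 and Kcnu1 were not called (log2 fold change -0.22, adjusted p = 0.0884 and log2 fold change -0.04, adjusted p = 0.69).

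The same contrast in the knockout libraries shares no library with the wildtype one. There, 3864 genes were called (23.6%). Among the 5066 wildtype calls, 2714 genes were also called in knockout lungs with the same sign, which is 53.6% of the wildtype list and 70.2% of the knockout list, and 6 were called with the opposite sign. The sign was the same in knockout lungs, called or not, for 94.9% of the wildtype calls. Some of the lists that moved far in wildtype lungs had like counts in knockout lungs: 24 of 30 p53 targets, 23 of 24 mitosis genes, 25 of 27 lysosomal genes and 18 of 22 macrophage genes were called higher, and 18 of 24 endothelial genes lower. Medians in the knockout libraries were 0.77 for p53 targets, 1.05 for mitosis, 1.19 for monocyte-derived macrophages and -0.51 for lung endothelium. For NK cells, 11 of 13 genes were called lower in wildtype and 1 in knockout lungs (medians -1.05 and -0.35), and for the clock, 1 and 1 of 19 genes were called higher and lower in knockout lungs. Of 18 Krt8-high genes, 17 were called higher in wildtype and 13 in knockout lungs (medians 1.12 and 0.69), and of 28 interstitial matrix genes 19 and 15 (medians 0.78 and 0.47). Of 5 erythroid genes, 5 and 3 were called lower (medians -1.25 and -0.65), and of 18 T cell genes 8 and 0. Of 18 type 2 cell genes, 12 were called lower and 2 higher in wildtype lungs, against 3 and 4 in knockout lungs. Other lists moved further in knockout lungs. Of 16 cardiac muscle genes, 2 were called lower in wildtype and 11 in knockout lungs (medians -0.33 and -1.06). Of 25 xenobiotic metabolism genes, 12 and 16 were called lower (medians -0.29 and -0.50). Of 24 interferon-induced genes, 14 and 20 were called higher (medians 0.54 and 0.62). These differences between counts were not tested. No NK cell, T cell, clock, Krt8-high or erythroid gene was called in the gene by gene test of the difference below.

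The test of the difference, the interaction of genotype and bleomycin over all 16 libraries, called 36 genes (0.22%), 23 with a more positive change in knockout lungs and 13 with a more negative one. All 36 were also called in the wildtype contrast, which shares its libraries with this test. The count moved with single libraries from 3 without KO-Bleo replicate 15, KO-Sal replicate 11, WT-Bleo replicate 5 or WT-Sal replicate 4 to 60 without KO-Sal replicate 12. Of the 18 type 2 cell markers, 5 were called. Lamp3 changed by -0.84 in wildtype and by 0.09 in knockout lungs (difference 0.93, adjusted p = 0.0118), and Chil1 by -0.31 and 0.54 (difference 0.86, adjusted p = 0.0118). These 2 calls held without any 1 of the 16 libraries, with adjusted p up to 0.0394 and 0.0459. Sftpa1, Slc34a2 and Sftpc also fell less in knockout lungs (differences 0.73, 0.62 and 0.60), as did Itih4 and Acoxl (0.84 and 1.12). Rgs5, Sfrp1 and Fbln2, an elastic fibre gene that rose by 1.21 in wildtype lungs, rose less in knockout lungs (differences -1.49, -0.83 and -0.92). The calls of these 8 genes were lost without 6 libraries for Sftpa1, 7 for Itih4, 9 for Rgs5 and Slc34a2, 12 for Sfrp1, 13 for Sftpc and Acoxl and 14 for Fbln2, each left out in turn, with adjusted p up to 0.123. The libraries whose omission ended most of these calls were KO-Bleo replicate 14, KO-Bleo replicate 15, KO-Sal replicate 11, WT-Bleo replicate 5, WT-Sal replicate 3 and WT-Sal replicate 4 (8 genes each).

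**Figure D5:**
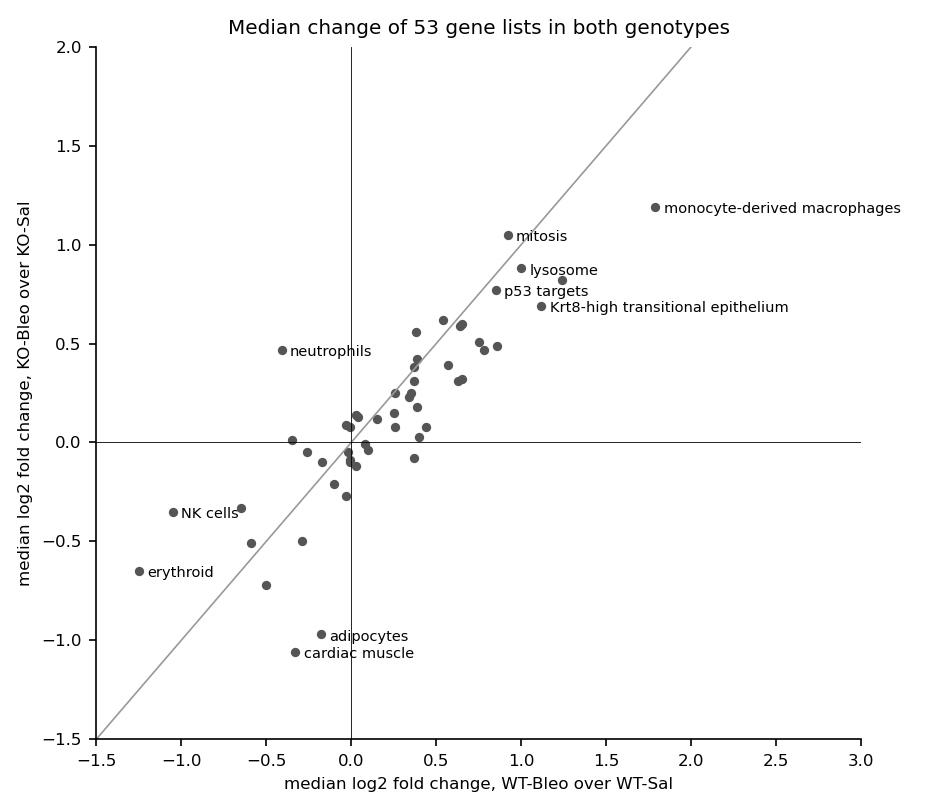
Each point is 1 of the 53 gene lists. The horizontal axis gives the median log2 fold change of the list's measured members with bleomycin in wildtype lungs and the vertical axis the same in IL-31RA knockout lungs, 4 libraries a group. The line marks equal values. The monocyte-derived macrophage list lies furthest to the upper right, and the erythroid and NK cell lists lie furthest to the left, above the line.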

How the data were processed

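The authors deposited 1 table of 16380 genes by 16 libraries of mouse lung RNA. Neither its header nor the labels name a unit, and the deposited values were read as RPKM, because the ratios between genes and between libraries are those of whole reads divided by a gene length and a library size. Whole reads were recovered in this way for 16379 genes (99.99%, relative tolerance 6e-08), as were the depths given above. Among tools, the submitters' notes on processing list TopHat, DESeq, bcl2fastq and CASAVA 1.8, with mm10 as the build, while the read counter and annotation were not given in the sources used here. The table holds no column of fold changes or p-values and 0 columns were left out. In 24 genes whose symbols were stored as dates, the symbol was replaced from RefSeq by gene ID, and 16363 IDs (99.9%) were in GRCm38.p6, whose coordinates and promoter sequences are those of RefSeq.

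Groups were taken from the labels. WT-Bleo was compared with WT-Sal by limma 3.58.1 (trend, robust) in R 4.3.3 on log2(RPKM + 1) without a filter, with the Benjamini-Hochberg adjustment over all genes and an adjusted p under 0.05. The study states a p of 0.05 and 1.5-fold and does not say whether that p was adjusted. The interaction was fitted over all 16 libraries. The procedure was run on simulated data in which few genes changed, none by a small fold, with the same added spread for every gene. That setting differs from these data, where many genes were called and most changes were small. Alternatives were pseudocounts of 0.1 and 5, filters at a mean of 1 RPKM and at 10 reads in 4 libraries, limma-voom on whole reads, median-of-ratios and upper-quartile scaling, quality weights, a spread shared by all groups, leaving out the 10 most abundant genes, the study's thresholds and leaving out each library.

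The gene lists (53) and the members described were chosen with earlier results of these data known. The rule named the 15 largest increases and decreases among called genes without overlap (mean log2 level 1 or more), up to 5 members of each list with the smallest p, 19 genes that the study names in mouse lung, and Il31ra, Xist, the clock genes, p53 targets and alveolar type 1 and type 2 markers, 338 genes in all, of which those with a result to describe are given by name and the others by counts or not reported here. Top2a and Cdc20 were added with their promoters. Kcna2, Kcnh4 and Kcnu1, which the study also names, were added after their values were seen. Read-based values cover counting error only.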

Additional observations from a re-analysis of the deposited data

Results flagged for a closer look

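A library was set apart where its gap to the nearest library of its group of 4, divided by the range of the group, was above the 95% limit of Dixon's test for 4 values, which chance passes in about 1 of 20 groups. On log2(RPKM + 1), 45 of 586 groups of the named genes passed it (7.68%). WT-Bleo replicate 6, the shallow library, was the one set apart in 17 of the 45. In it the number of genes listed at 0 (ratio 0.988) and the mean log2 level of the alveolar macrophage list, lowest there (ratio 0.900), passed as well. The ratios of the named genes follow by library, the gene in question being highest or lowest there.

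WT-Bleo replicate 6 was highest for Arntl (0.853), Calcb (0.973), Grem1 (0.851), Npas2 (0.962), Oas2 (0.875), Phlda3 (0.922), Prox1 (0.887), Rgs16 (0.893), Rrm1 (0.924) and Socs3 (0.848) and lowest for Acoxl (0.883), Ccl28 (0.904), Ccl9 (0.865), Colq (0.880), Ear1 (0.873), Pgk1 (0.866) and Slc7a10 (0.866). WT-Bleo replicate 5 was highest for Ephx1 (0.973), Perp (0.921) and Rad54l (0.851) and lowest for Clic5 (0.969) and Igf1 (0.842). WT-Bleo replicate 7 was highest for C3ar1 (0.868) and lowest for Irf7 (0.891) and Ltbp4 (0.862). WT-Bleo replicate 8 was lowest for C1qb (0.842) and Sec14l3 (0.838). WT-Sal replicate 1 was highest for Calcr (0.831), Exo1 (0.830), Mmp13 (0.857), Sdc1 (0.856) and Tpx2 (0.886) and lowest for Itih4 (0.891) and Krt5 (0.834). WT-Sal replicate 2 was highest for Scnn1g (0.907) and lowest for Ccl8 (0.830), Cox5a (0.834) and Oas1a (0.882). WT-Sal replicate 3 was highest for Cdkn1a (0.837), Has2 (0.921), Krt6a (1.0) and Pkm (0.938) and lowest for Rtkn2 (0.928) and Thbs3 (0.896). WT-Sal replicate 4 was highest for Nog (0.844).

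Among the named genes, 10 differed in their change with bleomycin between the genotypes by the interaction test of limma (adjusted p under 0.05). The difference, knockout minus wildtype on the log2 scale, was above 0 for Lamp3 (0.93), Chil1 (0.86), Sftpa1 (0.73), Itih4 (0.84), Slc34a2 (0.62), Sftpc (0.60) and Acoxl (1.12), and below 0 for Rgs5 (-1.49), Sfrp1 (-0.83) and Fbln2 (-0.92). The first group holds type 2 cell genes that fell in wildtype lungs, besides Itih4 and Acoxl, and the second genes of pericytes and fibroblasts that rose there.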

How the results depend on the processing

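Of 293 named genes, 260 kept their call and sign under every alternative but the unadjusted threshold. That threshold (p under 0.05 and at least 1.5-fold) called 1821 genes, 1136 higher and 685 lower, fewer because it also asks for a fold. limma-voom on whole reads called 6704, of which 3170 were lower, and quality weights 7087; the cause was not tested. Leaving out each library in turn gave 3878 to 6442 calls in the wildtype contrast and 3 to 60 in the interaction, where a pseudocount of 5 also ended the call of Sftpc (adjusted p = 0.0506) and a pseudocount of 0.1 that of Fbln2 (adjusted p = 0.0783). Haemoglobin genes are not listed, so that alternative left out 10 abundant genes only. The sign turned only in genes that were not called. Their log2 fold changes over the left-out libraries were Ager -0.04 to 0.03, Calcb -0.14 to 0.34, Ciart -0.13 to 0.35, Col4a3 -0.04 to 0.02, Col4a4 -0.02 to 0.15, Cry2 -0.07 to 0.07, Fas -0.19 to 0.02, Napsa -0.08 to 0.01, Nfil3 -0.26 to 0.09, Per1 -0.14 to 0.13, Rbpjl -0.06 to 0.13 and Sftpd -0.03 to 0.05. With other settings the sign turned with quality weights for Calcb (-0.18), Cry2 (-0.10), Kcnu1 (0.00) and Rbpjl (-0.03), with voom for Calcb (-0.03), Cry2 (-0.09), Rbpjl (-0.00) and Sftpd (-0.00), with median-of-ratios scaling for Cry2 (-0.05), Rbpjl (-0.01) and Sftpd (-0.04), with upper-quartile scaling for Cry2 (-0.03) and Sftpd (-0.02), with leaving out abundant genes for Cry2 (-0.01) and Sftpd (-0.00), and with a pseudocount of 5 for Per1 (0.00). No paired analysis was possible because the replicate numbers run from 1 to 16 and no groups share one. Replicate 6, the shallowest bleomycin library, limits the precision of low genes. With 4 libraries a group, an exact permutation test of 1 gene cannot go below 0.0286, so calls rest on the spread that limma shares between genes.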
